A study of Mus musculus with 2 samples.

Results

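The 33 genes described here build, edit and carry heparan sulfate, and were chosen by name from 31053 gene rows in the file: 7 3-O-sulfotransferases, 3 6-O-sulfotransferases, 4 N-deacetylase/N-sulfotransferases, the 2-O-sulfotransferase and the epimerase, 5 polymerases, 6 glypicans, 4 syndecans and 2 sulfatases. Heparan sulfate is a long sugar chain that neurons and glia carry on core proteins at the cell surface and in the matrix, where it binds growth factors, axon guidance cues and synaptic organisers. The chain is polymerised in the Golgi by exostosins and then edited: N-deacetylase/N-sulfotransferases exchange acetyl for sulfate groups, an epimerase and a 2-O-sulfotransferase act next, and 6-O- and 3-O-sulfotransferases add the last groups, so that a cell's set of enzymes shapes what its chains bind. Glypicans (anchored by lipid) and syndecans (spanning the membrane) are the main cell-surface carriers, and the extracellular sulfatases Sulf1 and Sulf2 take 6-O-sulfates off again.

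The genes were measured by single-nucleus RNA sequencing in the paraventricular hypothalamus (PVH) of mice aged 4 weeks, in a series that asks which factors control Mc4r, a receptor of feeding circuits. The groups were 6 Sim1-Cre; Sun1-GFP; OtpQ153R/+ mice, 4 Sim1-Cre; Sun-GFP; Otpfl/+ mice and 7 Sim1-Cre; Sun1-GFP mice. All 17 mice thus carried Sim1-Cre, which is driven by the regulatory sequence of a PVH transcription factor gene, and a reporter that puts GFP on the nuclear envelope of any cell that has expressed Cre; GFP-positive nuclei were sorted before sequencing. Otp is a homeobox factor of neuroendocrine neurons. The 17 mice shared 1 droplet library, in which 3 hashtag antibodies named Ctrl, KD and Q153R mark pools of nuclei. No label spells out KD, and it can be tied to the floxed genotype only by elimination, so these nuclei are called nuclei labelled KD.

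After filters, 4662 neuronal nuclei with exactly 1 hashtag were used, with a median of 5300 unique molecular identifiers (UMIs, each a counted transcript molecule; range 565 to 21844). Neurons were put into 7 classes by UMIs of a few genes, none of them a member: Oxt (oxytocin; 122 nuclei), Avp (vasopressin; 212), Crh (corticotropin-releasing hormone; 178), Trh (thyrotropin-releasing hormone; 336), Sst (somatostatin; 261), Esr2 (estrogen receptor beta; 51) and GABA (by Gad1, Gad2 and Slc32a1; 309). The other 3193 nuclei met no class rule. Neuronal markers were abundant in every class, at 1998 to 3847 CPM (UMIs of a gene per 1e6 UMIs of the group) summed over 5 genes, against 258 CPM in 137 glial nuclei that were set aside. The GABA class had the lowest level of Sim1 among the groups of neurons, 111 CPM against 410 to 956 CPM in the others. Otp itself was higher in both altered pools, at 110.9 CPM in Q153R and 76.3 CPM in KD, against 47.0 CPM in Ctrl. The level of Otp in KD was thus not below that in Ctrl, and UMIs of Otp alone do not check the labels.

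Each class was compared with the mean of the other 7 groups of nuclei (6 classes and the nuclei of no class), on UMIs summed per class and pool, in edgeR's quasi-likelihood test with Benjamini-Hochberg adjustment over all 7938 genes tested and all 7 contrasts, at an adjusted p of 0.05. The mean is taken on the log2 scale, so a fold change is not the ratio of the averages printed. The spread is that between the 3 pools, which hold different mice, differ in genotype and share 1 library, so it may be smaller than that between animals. Of the 33 members 22 passed the filter on low counts; the others were Hs3st3a1, Hs3st3b1, Hs3st6, Hs6st1, Ndst1, Ndst2, Extl1, Gpc2, Gpc4, Sdc1 and Sdc4. A member of low level could pass only through a class in which it was high, so the counts below describe these genes and are not read as a property of the pathway.

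Most calls between neuron classes fell to the modifying enzymes and the glypicans, which are also most of the members tested. The sulfatases had calls as well, 1 higher and 2 lower for Sulf1 and 1 each way for Sulf2. In Oxt nuclei 5 members were higher and 5 lower, where 7.34% of all genes tested were higher and 6.66% lower. Avp nuclei had 1 member higher and 9 lower, beside 8.91% and 9.42% of all genes. For Crh nuclei the count was 5 higher and 1 lower, beside 14.3% and 8.34%. Trh nuclei had the same count, 5 higher and 1 lower, beside 6.59% and 4.13%. Among Sst nuclei 4 members were higher and 2 lower, beside 6.9% and 4.23% of all genes. The Esr2 class had 3 higher and 3 lower, beside 4.2% and 3.58%. GABA nuclei had 6 higher and 0 lower, beside 7.0% and 2.62%. Lower calls were thus the majority in Avp nuclei alone, also the only class where lower calls outnumbered higher ones among all genes (9.42% against 8.91%). Higher calls were the majority in Crh, Trh, Sst and GABA nuclei, as they were among all genes there. The 6 tested members without a call in any class in this fit were Ext2, Extl2, Extl3, Gpc1, Sdc2 and Sdc3. With the filter dropped, so that all 24265 genes with at least 1 UMI were tested and 4.74% of all tests passed, Sdc2 and Extl3 had calls too, as did 4 of the members too low for the filter (Hs3st3a1, Hs3st3b1, Hs6st1 and Gpc4). The adjusted p-values of that fit, here and below, are not on the scale of the main fit. At nearly the same fold change Hs3st2 in Crh nuclei went from 2.97e-11 to 6.67e-106, and Gpc5 in Crh nuclei from 1.57e-08 to 9.67e-08 (edgeR adjusted p). They are therefore not read as a measure of the spread between pools.

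**Figure D1:**
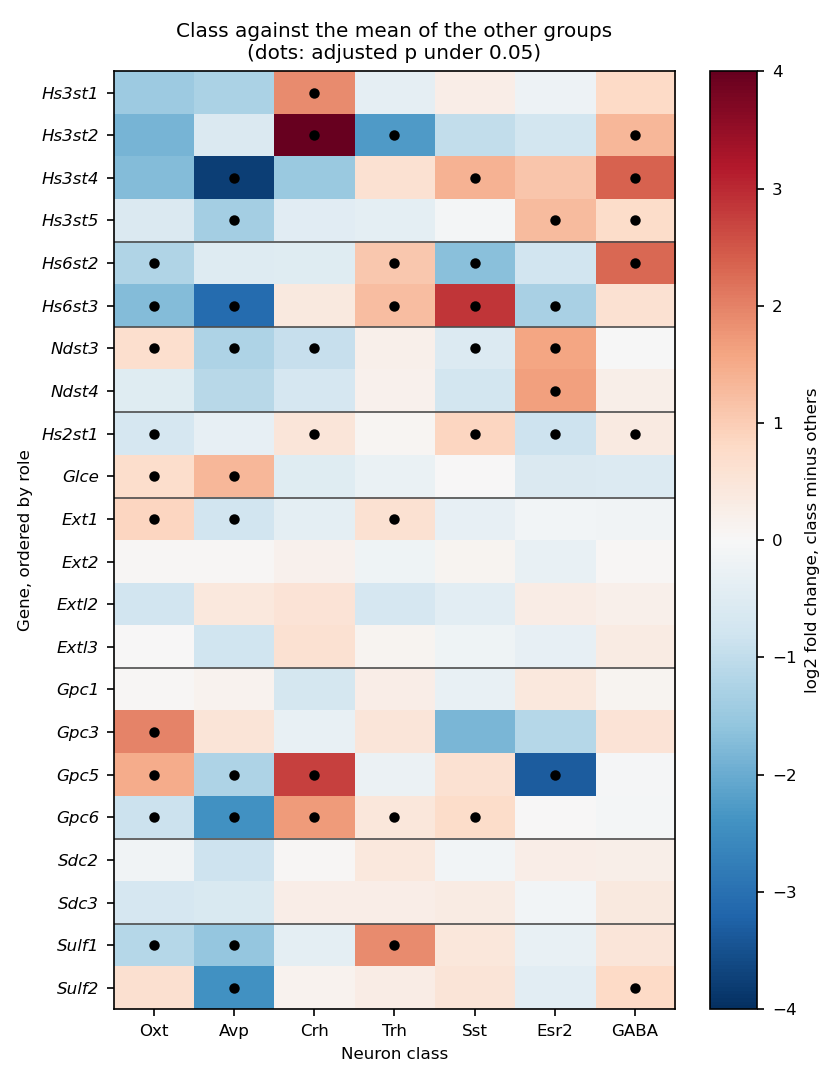
Log2 fold change of each of the 22 members tested (rows, ordered by role, with lines between roles) in each neuron class (columns) against the mean of the other groups; red is higher in the class, blue lower, and a dot marks an adjusted p under 0.05. Sulfotransferases and glypicans hold most dots, and the Avp column holds 9 blue dots and 1 red one.

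The 3-O-sulfotransferases add the rarest mark on the chain, one that creates binding sites for particular proteins, and they differed sharply between classes. Hs3st2, an enzyme long known as brain-enriched, marked Crh nuclei. Summed UMIs gave 293, 245 and 380 CPM in the Q153R, KD and Ctrl pools of Crh nuclei, which average 306 ± 68.7 CPM (SD, n = 3), against 30.3 CPM averaged over the other groups. All 3 Crh sums lay above every sum of every other group. The log2 fold change was 3.99 ± 0.26 (SE; 15.8-fold; edgeR adjusted p = 2.97e-11). Of 178 Crh nuclei 80 held a Hs3st2 UMI (44.9%), against 12.7% of nuclei of no class and 1.46% of glial nuclei. With nuclei thinned to 2000 UMIs, which leaves out 9 Crh and 51 glial nuclei, the shares were 34.0% in Crh, 8.47% in nuclei of no class and 1.05% in glia. In Trh nuclei, which release the hormone that drives the thyroid axis, Hs3st2 was near the lowest levels seen, with 3.10, 5.99 and 13.1 CPM in Q153R, KD and Ctrl, against 72.9 CPM averaged over the other groups. That difference was −2.26 ± 0.50 on the log2 scale (edgeR adjusted p = 0.00249), and without the Ctrl pool it was larger, at −2.92, but missed the threshold (edgeR adjusted p = 0.066). The Crh sums raise the average of 72.9 CPM, and low levels were not particular to Trh. Oxt, Avp, Sst and Esr2 nuclei averaged 8.56, 21.0, 16.9 and 19.2 CPM, without a call in this fit. With the filter on low counts dropped, Oxt nuclei were called lower too (−1.92, edgeR adjusted p = 0.000413). GABA nuclei were also called higher for Hs3st2 (1.33 ± 0.31; adjusted p = 0.0038 in edgeR), with 78.5 ± 51.1 CPM against 62.8 CPM over the other groups, but only 1 of 3 pools exceeded that average, which the Crh sums raise. Without the Ctrl pool the GABA call was lost (1.62, edgeR adjusted p = 0.0561), as it was against all other nuclei of a pool (0.27; 0.576).

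Hs3st4, another 3-O-sulfotransferase of the brain, had its highest level in GABA nuclei and a low one in Crh nuclei. In GABA nuclei it stood at 548, 645 and 393 CPM in Q153R, KD and Ctrl, against 162 CPM averaged over the other groups (log2 fold change 2.37 ± 0.28; edgeR adjusted p = 1.94e-05). In Avp nuclei it stood at 15.3, 4.80 and 16.7 CPM in the same order of pools, against 236 CPM over the other groups (−3.77 ± 0.65; edgeR adjusted p = 0.000798). Hs3st4 was thus low in every Avp pool and high in every GABA pool. Low levels were not particular to Avp: Crh nuclei held 44.1 CPM and Oxt nuclei 43.4 CPM over all pools, without a call. In Oxt nuclei 29 of its 38 UMIs came from 1 nucleus. Sst nuclei were called higher (1.38 ± 0.33; edgeR adjusted p = 0.0103), at 166, 479 and 240 CPM, so that the KD sum carried most of the average. Against all other nuclei of a pool, most of them of no class with 307 CPM, the Sst difference was 0.00 (edgeR adjusted p = 0.994). Hs3st5 was higher in Esr2 nuclei (1.27 ± 0.21; 291 ± 77.4 against 127 CPM) and in GABA nuclei (0.74 ± 0.15; 0.54 and lost without the Ctrl pool, edgeR adjusted p = 0.107), and lower in Avp nuclei (−1.35 ± 0.22). Nuclei of no class held 220 CPM of Hs3st5, and against all other nuclei of a pool both higher calls were lost (0.47 with edgeR adjusted p = 0.164 in Esr2 and 0.10 with 0.766 in GABA). Hs3st1, the enzyme best known for the antithrombin-binding site of heparin, was higher in Crh nuclei at 28.1, 32.6 and 31.9 CPM in Q153R, KD and Ctrl, against 11.1 CPM over the other groups. Its difference was 1.88 ± 0.47 on the log2 scale (edgeR adjusted p = 0.00352; 0.0618 without the Ctrl pool). It rests on 26 UMIs in Crh nuclei.

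Of the low members, Hs3st3a1 and Hs3st3b1 had their highest levels in nuclei with Esr2. These neighbours on chromosome 11 lie 513 kb apart and encode enzymes with nearly the same catalytic domain, so reads could be shared between them and their split is uncertain. Hs3st3b1 stood at 66.7, 63.3 and 8.09 CPM in the Q153R, KD and Ctrl pools of Esr2 nuclei, which is 19 UMIs in all. Its level was 0 to 6.85 CPM in every other class and 6.47 CPM in nuclei of no class. Hs3st3a1 stood at 7.41, 49.2 and 8.09 CPM in the same pools, 9 UMIs in all, and at 0 to 4.04 CPM in the other classes. Both were too sparse for the filter of the test. With the filter dropped both were called higher in Esr2 nuclei (edgeR adjusted p = 3.87e-12 for Hs3st3b1 and 5.33e-05 for Hs3st3a1). These p-values are not on the scale of the main fit, and the Hs3st3a1 level there rests mostly on the KD pool. With groups at 0 UMIs the fitted fold is not given. A set of 19 nuclei met both the Oxt and the Esr2 rule and was left out of the classes; there Hs3st3b1 had 14 UMIs in 7 nuclei (82.2 CPM, 95% Poisson interval 44.9 to 138). Hs3st6 had no UMI in any neuron, which allows up to 0.113 CPM.

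The promoters of 4 of these genes are printed because the genes sit in neighbouring pairs (Hs3st2 with Hs3st4 on chromosome 7, 2481 kb apart, and Hs3st3a1 with Hs3st3b1) that differ in Pearson's r between their levels. Over the 8 groups, Pearson's r of log2(CPM + 1) was 0.891 for Hs3st3a1 with Hs3st3b1 and 0.000994 for Hs3st2 with Hs3st4, beside a median of 0.232 over 231 pairs of tested members. Spearman's rho was 0.657 and 0.262 for these pairs. Hs3st3a1 and Hs3st3b1 were both under the filter, and their shared peak in Esr2 nuclei holds only 9 and 19 UMIs. These are descriptions over groups that share 1 library. Each window holds 250 bases before and 50 after the start in RefSeq (GRCm38.p6), 5′ to 3′ on the gene's strand: chr7:121392046-121392345 (plus), chr7:123982578-123982877 (plus), chr11:64435082-64435381 (plus) and chr11:63922235-63922534 (minus). Capitals mark the palindrome TGACGTCA, the cAMP response element.
Hs3st2: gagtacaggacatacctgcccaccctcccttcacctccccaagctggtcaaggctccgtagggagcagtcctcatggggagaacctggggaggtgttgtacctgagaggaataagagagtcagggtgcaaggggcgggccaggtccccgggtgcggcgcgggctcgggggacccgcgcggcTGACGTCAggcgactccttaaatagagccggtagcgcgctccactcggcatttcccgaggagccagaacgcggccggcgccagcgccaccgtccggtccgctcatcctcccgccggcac
Hs3st4: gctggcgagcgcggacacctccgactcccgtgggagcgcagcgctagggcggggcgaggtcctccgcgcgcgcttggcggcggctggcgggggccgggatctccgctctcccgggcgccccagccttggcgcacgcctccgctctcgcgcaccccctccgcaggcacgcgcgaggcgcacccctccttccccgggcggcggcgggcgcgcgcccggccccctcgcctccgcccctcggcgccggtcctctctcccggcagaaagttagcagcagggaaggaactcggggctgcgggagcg
Hs3st3a1: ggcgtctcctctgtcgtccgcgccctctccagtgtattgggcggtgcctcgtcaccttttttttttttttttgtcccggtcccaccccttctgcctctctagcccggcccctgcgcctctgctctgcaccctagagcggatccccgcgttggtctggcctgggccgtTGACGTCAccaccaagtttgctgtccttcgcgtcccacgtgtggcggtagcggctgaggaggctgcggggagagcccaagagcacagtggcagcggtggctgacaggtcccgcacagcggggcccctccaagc
Hs3st3b1: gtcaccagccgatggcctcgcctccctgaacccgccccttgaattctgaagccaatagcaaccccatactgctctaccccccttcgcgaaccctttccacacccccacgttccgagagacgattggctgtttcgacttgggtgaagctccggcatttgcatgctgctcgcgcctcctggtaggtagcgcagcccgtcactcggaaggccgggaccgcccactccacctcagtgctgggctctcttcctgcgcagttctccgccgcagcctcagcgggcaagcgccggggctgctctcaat
TGACGTCA stood in the Hs3st2 and Hs3st3a1 windows, and in 1.79% of 32851 such windows of all genes. The others searched, on both strands, were AGGTCA (a nuclear receptor site; 16.3% of all windows), TAATTA (a homeodomain core; 5.29%), TACGTG (a Sim1-Arnt core; 3.23%), TATAAA (13.6%) and GGGCGG (a GC box; 35.7%), and the TGACGTCA matches overlap no other match. In the 28 windows of the 24 members that the RefSeq table lists, GGGCGG was found in 19, AGGTCA in 4, TATAAA in 3, TAATTA in 1 and TACGTG in 0. In these 4 windows GGGCGG was found in each and none of the others apart from TGACGTCA. A match says only that the letters are there.

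The 6-O-sulfotransferases, whose sulfates matter for fibroblast growth factor signalling, split by class too. Hs6st3 marked Sst nuclei, whose peptide is known for restraining growth hormone release. It stood at 3774, 3124 and 2910 CPM in Q153R, KD and Ctrl, against 634 CPM averaged over the other groups. Every Sst sum lay above all other sums, with a log2 fold change of 2.86 ± 0.18 (7.24-fold; edgeR adjusted p = 3.76e-09). A Hs6st3 UMI was found in 92.7% of Sst nuclei, 17.0% of Avp nuclei and 10.9% of glia, or 90.0%, 9.51% and 7.46% at 2000 UMIs. Detection was not particular to Sst. The share was 82% in Trh, 71% in no class, 67% in Crh, 63% in GABA, 41% in Esr2 and 35% in Oxt nuclei. At 2000 UMIs these shares were 71.5%, 60.9%, 53.7%, 47.9%, 24.5% and 21.5%. Oxt and Avp nuclei were at the other end. Avp nuclei held 115, 69.6 and 78.9 CPM in Q153R, KD and Ctrl, against 1088 CPM over the other groups (−3.09 ± 0.32; edgeR adjusted p = 2.14e-06). Oxt nuclei held 184, 174 and 247 CPM, against 1072 CPM (−1.75 ± 0.29; edgeR adjusted p = 0.000402). The Avp share was close to that of glia, but the glial value is no clean background. A single glial nucleus held 26 of the 52 glial UMIs of Hs6st3, and oligodendrocyte-like nuclei had none (at most 29.8 CPM by the 95% Poisson interval), below the 87.3 CPM (71.5 to 105.4) of all Avp nuclei. Hs6st3 was also higher in Trh nuclei (1.23 ± 0.20; 1262 ± 58.9 CPM), but not against all other nuclei of a pool (0.20, edgeR adjusted p = 0.0985), where nuclei of no class held 1101 CPM. It was lower in Esr2 nuclei (−1.28 ± 0.32), where the pools differed widely at 104, 183 and 567 CPM. That call was lost without the Q153R pool (−0.85, edgeR adjusted p = 0.058), without the KD pool (−1.03; 0.198) and in nuclei of 3000 to 15000 UMIs (−1.07; 0.07), and the difference was −2.25 without the Ctrl pool.

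Hs6st2, on the X chromosome, was highest in GABA nuclei, which also held Hs6st3 at 829 ± 181 CPM. The 3 GABA sums held 180, 216 and 273 CPM in Q153R, KD and Ctrl, all above every other sum, against 58.2 CPM over the other groups (2.30 ± 0.19; edgeR adjusted p = 3.62e-10). In Sst nuclei, rich in Hs6st3, it was low, at 8.19, 21.1 and 28.2 CPM, against 87.3 CPM (−1.68 ± 0.38), a call lost with nuclei counted for every class whose rule they meet (−0.88, edgeR adjusted p = 0.174). Trh nuclei were higher (1.08 ± 0.22; 116 ± 29.7 CPM), but against all other nuclei of a pool, a contrast dominated by the nuclei of no class, the difference was −0.05. Oxt nuclei were lower (−1.21 ± 0.40; edgeR adjusted p = 0.0449), a call lost without the Q153R pool (−1.10, adjusted p = 0.154), without the Ctrl pool (−0.38; 0.671) and without nuclei that held a glial marker UMI (−0.78; 0.431). Without the KD pool the difference was −2.37. Hs6st1, the third family member, was under the filter, at 2.50 to 26.2 CPM over the classes; with the filter dropped it was called higher in Crh nuclei (1.45, edgeR adjusted p = 0.0272).

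N-deacetylase/N-sulfotransferases start the editing of the chain, and the 2 brain members were both highest in Esr2 nuclei. Ndst3 held 489, 316 and 356 CPM there in Q153R, KD and Ctrl, all above every other sum, against 133 CPM over the other groups (1.59 ± 0.19; edgeR adjusted p = 1.07e-08). A UMI of Ndst3 was found in 82.4% of Esr2 nuclei and 0.730% of glia, or 51.2% and 0.969% at 2000 UMIs. In the other classes the share ran from 13.5% of Crh to 67.2% of Oxt nuclei, with 39.0% in nuclei of no class. At 2000 UMIs these shares were 7.05%, 34.0% and 22.4%. Ndst4 held 207, 401 and 162 CPM in the same nuclei, against 85.9 CPM over the other groups (1.66 ± 0.43; edgeR adjusted p = 0.0174), and lost the call without the KD pool (1.26, adjusted p = 0.094), without the Ctrl pool (1.76; 0.0962) and with the filter dropped (1.58; 0.0613). Esr2 nuclei are few, with 16 to 18 per pool. Ndst3 was lower in Avp (−1.23 ± 0.20), Crh (−0.94 ± 0.23) and Sst nuclei (−0.53 ± 0.18), and slightly higher in Oxt nuclei (0.67 ± 0.17). The Oxt call was lost against all other nuclei of a pool (0.40, edgeR adjusted p = 0.0845) and without nuclei that held a glial marker UMI (0.50; 0.0812). The Crh call was lost without the Ctrl pool (−0.49, edgeR adjusted p = 0.275), and the Sst call without the Q153R pool (−0.49; 0.166), without the KD pool (−0.34; 0.372) and in 2 of the other alternatives. The genes lie 1713 kb apart on chromosome 3, and their levels over the 8 groups had r = 0.843. Ndst1 and Ndst2, the forms that most tissues use, were too low to test, at 7.15 to 15.6 and 2.38 to 16.3 CPM over the classes.

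Glce, the epimerase that turns glucuronic into iduronic acid, was the only member called higher in Avp nuclei. It held 199, 113 and 201 CPM in Q153R, KD and Ctrl, against 72.7 CPM over the other groups (1.31 ± 0.19; edgeR adjusted p = 1.25e-06). Oxt nuclei were also higher (0.69 ± 0.23; edgeR adjusted p = 0.0347), with 64.3, 165 and 131 CPM, a call lost without the KD pool (0.41, adjusted p = 0.358), without the Ctrl pool (0.73; 0.137) and with nuclei counted for every class whose rule they meet (0.46; 0.245). Hs2st1, which sulfates the iduronic acid, did not follow Glce. It was highest in Sst nuclei, at 387, 286 and 428 CPM, against 214 CPM (0.85 ± 0.12; edgeR adjusted p = 3.06e-07). It was also called higher in Crh (0.48 ± 0.14) and GABA nuclei (0.35 ± 0.12), and lower in Oxt (−0.66 ± 0.16) and Esr2 nuclei (−0.83 ± 0.21). Each of these 4 calls depended on single pools: without Q153R the 4 were at 0.30, 0.23, −0.59 and −0.65 in that order, none past the threshold (edgeR adjusted p = 0.377, 0.4, 0.0535 and 0.121). None of the 4 passed either without nuclei that held a glial marker UMI (edgeR adjusted p = 0.0507 to 0.0715), nor did those in Crh and GABA nuclei against all other nuclei of a pool (0.32 with 0.299 and 0.23 with 0.242).

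The polymerases had few calls. Ext1, a subunit of the co-polymerase that builds the chain, was higher in Oxt nuclei, at 446, 670 and 495 CPM in Q153R, KD and Ctrl, against 302 CPM over the other groups (0.85 ± 0.13; edgeR adjusted p = 8.47e-07). It was higher in Trh nuclei too (0.61 ± 0.11) and lower in Avp nuclei (−0.76 ± 0.14); Oxt and Avp nuclei, which include the magnocellular neurons that release hormone into the blood, were not compared with each other. Its partner Ext2 had no call and kept to 64.9 to 79.8 CPM over the classes. Extl2 (10.3 to 20.4 CPM) and Extl3 (33.4 to 72.7 CPM), which act in chain initiation, had no call either, but Extl3 was called lower in Avp nuclei with the filter dropped (−0.85, edgeR adjusted p = 0.0161) and against all other nuclei of a pool (−0.93; 0.00679). Extl1 was too low to test, with 68 UMIs in all neurons.

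Glypicans gave the largest contrasts among the carriers. Gpc5 ran over a wide range, in the order Crh, Oxt, Sst, Trh, GABA, Avp and Esr2. In Crh nuclei it held 5628, 5024 and 6318 CPM in Q153R, KD and Ctrl, against 1298 CPM averaged over the other groups, and every Crh sum exceeded all other sums. The log2 fold change was 2.73 ± 0.19 (6.63-fold; edgeR adjusted p = 1.57e-08). Oxt nuclei followed at 2109, 3732 and 3353 CPM, against 1669 CPM (1.49 ± 0.20; edgeR adjusted p = 6.60e-05). Trh and GABA nuclei, neighbours in that order at 1054 and 1011 CPM over all pools, overlapped between pools and had no call. By the mean of 3 pools GABA nuclei, at 1195 CPM, stood above Trh nuclei, at 1104 CPM. Avp nuclei were lower, at 343, 655 and 719 CPM, against 2025 CPM (−1.22 ± 0.26; edgeR adjusted p = 0.00356, and −1.27 with 0.0837 without the KD pool). Gpc5 is also a gene of astrocytes, with 7221 CPM in 75 astrocyte-like nuclei of the same library. Astrocyte markers summed over 6 genes were 49.1 CPM in Oxt and 34.6 CPM in Crh nuclei, the 2 highest neuron values, against 0 to 22.7 CPM in the other groups and 2177 CPM in glia. In nuclei without any glial marker UMI, Gpc5 was still at 5895 CPM in Crh and 2857 CPM in Oxt nuclei, and both calls held.

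Esr2 nuclei stood at the bottom for Gpc5, at 148, 190 and 162 CPM in Q153R, KD and Ctrl, against 2083 CPM over the other groups (−3.34 ± 0.37; 0.0988-fold; edgeR adjusted p = 5.17e-06). All 3 sums lay below every other sum. That value belongs to Esr2 nuclei without much oxytocin. The 19 nuclei that met both the Oxt and the Esr2 rule held 756 Gpc5 UMIs, or 4438 CPM (95% Poisson interval 4128 to 4766), and 18 of the 19 had a UMI, against 18 of 51 nuclei of the Esr2 class. With these nuclei counted in both classes the Esr2 difference was −0.38 (edgeR adjusted p = 0.488). Gpc5 thus differed between the Esr2 class and these 19 nuclei (5, 6 and 8 in Q153R, KD and Ctrl), whose interval covers counting error only. Whether the 19 are cells of both kinds or doublets within a pool was not tested. For other members called higher in this class, the 19 nuclei held Ndst3 at 294 CPM (218 to 387), against 387 CPM in the Esr2 class, and Hs3st5 at 170 CPM (114 to 244), against 294 CPM. Ndst4 was at 176 CPM (119 to 251) in the 19 nuclei, against a mean of 257 CPM over the 3 pools of the Esr2 class.

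Gpc6, the neighbour of Gpc5 on chromosome 14 (400 kb apart), shared its Crh peak and its low level in Avp nuclei, but not its order in Oxt and Esr2 nuclei. Crh nuclei held 3252, 2406 and 2697 CPM in Q153R, KD and Ctrl, against 1128 CPM (1.69 ± 0.10; edgeR adjusted p = 2.85e-19), above all other sums. Avp nuclei held 281, 262 and 213 CPM, against 1490 CPM (−2.43 ± 0.14; edgeR adjusted p = 4.13e-19), below all other sums. Oxt nuclei, high in Gpc5, were low in Gpc6 at 694, 657 and 672 CPM (−0.85 ± 0.12), and Esr2 nuclei, lowest in Gpc5, held 1126, 1132 and 1206 CPM with no call. Over the 8 groups the pair had r = 0.393. Gpc6 ran closer to Hs6st3 (r = 0.771), the third member on that stretch of chromosome 14. Smaller calls for Gpc6 were higher levels in Sst (0.72 ± 0.10) and Trh nuclei (0.45 ± 0.10). The Trh call was lost against all other nuclei of a pool (0.05, edgeR adjusted p = 0.813), where nuclei of no class held 1510 CPM and Trh nuclei 1501 CPM, and with nuclei near many multiple-tag barcodes left out (0.37; 0.153).

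Gpc3, an X-linked glypican known for restraining Hedgehog signals and body growth, was the one glypican to peak in Oxt nuclei. It held 206, 60.9 and 129 CPM in Q153R, KD and Ctrl, against 35.4 CPM over the other groups (1.98 ± 0.39; edgeR adjusted p = 0.00161), and the pools spread widely around a mean of 132 ± 72.5 CPM. The next gene on the X, Gpc4, known for its part in synapse formation, was under the filter; 65 of its 241 UMIs came from GABA nuclei, at 32.8 CPM (25.3 to 41.8), and every other class held 0 to 9.54 CPM. With the filter dropped it was called higher in GABA nuclei (edgeR adjusted p = 5.17e-12). Gpc1 had no call at 20.3 to 47.4 CPM, and Gpc2 had 3 UMIs in all.

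Syndecans differed little between neuron classes. Sdc3, the neuronal syndecan tied to feeding through agouti-related peptide, held 13.7 to 26.2 CPM over the classes, and Sdc2 held 41.6 to 92.5 CPM, with no call for either in edgeR after the filter on low counts. With every gene of at least 1 UMI kept, Sdc2 was called lower in Avp nuclei (−0.87, edgeR adjusted p = 0.00351) and higher in Trh nuclei (0.49; 0.0412). The self-test on simulated counts recovered 58% of 2-fold and 94% of 4-fold changes in the Crh class. In it only genes with many UMIs were changed, and all genes had 1 fixed spread. Differences of 2-fold or less can thus have been missed, more so for members with fewer UMIs or a wider spread. Sdc1 (6 UMIs) and Sdc4 (12 UMIs) were nearly absent from the neurons.

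The sulfatases act outside the cell and differed between classes as well. Sulf1 was highest in Trh nuclei, with 82.2, 138 and 113 CPM in Q153R, KD and Ctrl, all above every other sum, against 32.4 CPM over the other groups (1.88 ± 0.19; edgeR adjusted p = 5.15e-11). A Sulf1 UMI was found in 29.2% of Trh nuclei, 15.2% of nuclei of no class and 4.25% (Avp) to 16.5% (GABA) of other classes. At 2000 UMIs the shares were 15.9% in Trh nuclei and 7.70% in nuclei of no class. Sulf1 was lower in Avp nuclei (−1.55 ± 0.38; 13.2 ± 4.29 CPM). It was also called lower in Oxt nuclei (−1.15 ± 0.40), a call lost without any 1 of the pools (−0.88 to −1.25; edgeR adjusted p = 0.0923 to 0.363). Sulf2 was low in Avp nuclei, at 10.2, 2.40 and 2.39 CPM, against 27.5 CPM (−2.41 ± 0.50; edgeR adjusted p = 0.000334), which is 6 UMIs. Without the Q153R pool, which held most of them, the difference was −3.49, and without the KD pool −1.99. In GABA nuclei Sulf2 was called higher (0.79 ± 0.26; edgeR adjusted p = 0.0334) at 33.5 ± 12.5 CPM. Sulf2 is high in oligodendrocytes, and oligodendrocyte markers were at 133 CPM in GABA nuclei, against 34.9 to 57.9 CPM in the other groups; without nuclei that held a glial marker UMI the GABA difference was 0.92 and no longer called (edgeR adjusted p = 0.0709), while the Sulf2 level was 36.6 CPM (27.2 to 48.3) in GABA nuclei without such a UMI and 34.1 CPM (21.1 to 52.1) in those with one. The call was also lost without the KD pool (0.57, edgeR adjusted p = 0.336), without the Ctrl pool (0.80; 0.226), in DESeq2 (0.76; 0.0584) and against all other nuclei of a pool (0.39; 0.408).

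The 9 members called lower in Avp nuclei were Hs3st4, Hs3st5, Hs6st3, Ndst3, Ext1, Gpc5, Gpc6, Sulf1 and Sulf2. Summed neuronal markers were also lowest in this class, at 1998 CPM, against 2395 to 3847 CPM in the others, and their part in these calls was not tested. After edgeR's scaling the median log2 fold change of all genes in Avp nuclei was 0.04, and that of the 22 members tested was −0.82. Over all classes the medians ran from −0.82 to 0.35 for the members and from −0.03 to 0.04 for all genes. Long genes gave more UMIs: across the 33 members the gene's span and its UMIs had a Spearman rho of 0.851, so levels are not compared between genes.

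Genes that work beside the members were counted in 4 lists. Of 16 genes for the linker, precursors and matrix core proteins 10 were tested, and each class had at most 2 called higher and 1 called lower. Xylt1, which starts the linker on the core protein, was low in Avp nuclei at 30.7, 40.8 and 19.1 CPM in Q153R, KD and Ctrl (−2.35 ± 0.33) and high in Esr2 nuclei at 289, 492 and 316 CPM (1.68 ± 0.25). Col18a1, a matrix collagen that carries heparan sulfate, was high in Trh nuclei (2.02 ± 0.39), and Ugdh, which makes the precursor of glucuronic acid, was low in Crh nuclei (−1.79 ± 0.53). Of 9 lysosomal and heparanase genes of breakdown 4 were tested; among them Ids, which removes sulfate from iduronic acid in the lysosome, was higher in Esr2 nuclei (1.0 ± 0.30). Medians of these 2 lists ran from −0.43 to 0.27 and from −0.31 to 0.11.

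Chondroitin and dermatan sulfate, the sister chains, gave 12 tested genes of 23, with up to 4 higher and 5 lower in a class. Vcan, a matrix core protein, was high in Oxt nuclei at 210, 226 and 97.0 CPM in Q153R, KD and Ctrl, against 26.1 CPM (2.90 ± 0.28). Csgalnact1, which starts the chondroitin chain, was high in Sst nuclei at 453, 376 and 483 CPM, against 96.7 CPM (2.36 ± 0.11). The sulfotransferases Ust (−2.77 ± 0.46) and Chst11 (−2.43 ± 0.37) were low in Avp nuclei, as were Hs3st4 and Hs6st3 on the heparan side. Of 25 proteins known to bind heparan sulfate 20 were tested, with up to 8 higher and 6 lower in a class. Alk, a receptor tyrosine kinase whose ligands bind these chains, was high in Crh nuclei (2.54 ± 0.25; 1342 ± 412 CPM), and Nrxn3, a presynaptic protein, in GABA nuclei (2.11 ± 0.17). Robo1, a Slit receptor, was low in Oxt nuclei (−2.54 ± 0.20) and Robo2 high in Esr2 nuclei (2.38 ± 0.13). Medians ran from −0.37 to 0.51 for the chondroitin list and from −0.32 to 0.25 for the binding partners.

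Between the hashtag pools, nearly all members differed by less than 1.5-fold once class was held equal. With 1 pool per genotype there is no replicate and no test: ratios were taken within classes and combined (Mantel-Haenszel), with 95% intervals for counting error only, and called at 1.5-fold with at least 50 UMIs. In KD against Ctrl 0 of 28 members with enough UMIs passed the fold, beside 1.62% of all genes higher and 1.92% lower. In Q153R against Ctrl 0 passed upward and 1 downward, beside 1.43% and 2.61%. That member was Hs3st3a1, with 18 UMIs in Q153R and 38 in Ctrl (0.661, interval 0.381 to 1.14).

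Smaller ratios had narrow intervals where counts were high. Hs3st4 stood at 325 CPM in KD, against 261 CPM in Ctrl (ratio 1.25, 1.18 to 1.31), and at 252 CPM in Q153R (1.0, 0.944 to 1.06). Ndst4 stood at 1.21 (1.12 to 1.31) in KD and 1.11 (1.02 to 1.20) in Q153R. On the low side, Hs3st1 in KD was at 0.702 (0.546 to 0.903), Hs3st2 at 0.746 (0.658 to 0.846) and Sulf2 at 0.815 (0.685 to 0.971). Gpc6 was above Ctrl in both altered pools, at 1.20 (1.17 to 1.23) in Q153R and 1.11 (1.08 to 1.13) in KD, and so was Gpc5, at 1.10 (1.08 to 1.13) and 1.15 (1.12 to 1.18). Both comparisons use the same Ctrl nuclei. Hs2st1 was at 1.14 (1.07 to 1.21) and Hs6st2 at 0.868 (0.792 to 0.951) in Q153R. The pools also differed in their mice: nuclei with at least 3 Xist UMIs and no Y-linked UMI made up 47.2% in Q153R, 80.6% in KD and 65.4% in Ctrl, and Hs6st2, Gpc3 and Gpc4 are X-linked. Repeated in those nuclei alone, 3 of 28 members passed the fold in KD (1 higher, 2 lower) and 2 of 27 in Q153R (1 higher, 1 lower). Among all genes there, 236 of 12457 were higher and 262 lower in KD, and 221 of 11787 higher and 331 lower in Q153R.

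**Figure D2:**
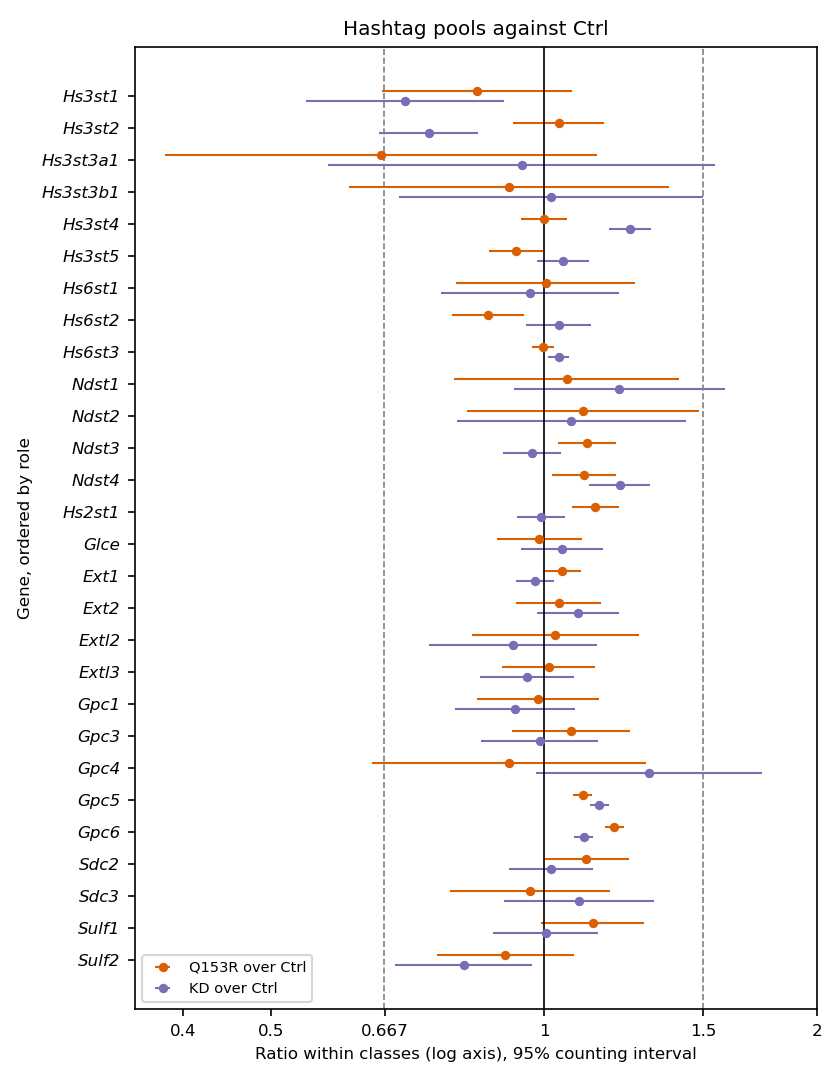
Ratio of each member's level within classes (log axis) in Q153R over Ctrl and in KD over Ctrl, with 95% intervals for counting error; dashed lines mark 1.5-fold in either direction. The points of the 28 members with at least 50 UMIs lie between the dashed lines, except Hs3st3a1 in Q153R at 0.661.

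Within single classes more ratios passed the fold. In KD against Ctrl 28 of 110 ratios with at least 50 UMIs passed 1.5-fold, 17 upward and 11 downward, where 4.48% of all such ratios were past it upward and 6.27% downward. Of these 28, 1 was in the large group of no class. In Q153R against Ctrl 21 of 103 passed, 13 upward and 8 downward, beside 4.74% and 6.16% of all such ratios. The shares over all genes were not matched to the members by group or UMI count, so the 2 are not compared like for like. Hs3st4 and Ndst4 each passed in 4 classes in KD, all upward. Hs3st4 stood at 527 against 138 CPM in Esr2 nuclei (3.83, 2.26 to 6.49), 479 against 240 CPM in Sst nuclei (2.0, 1.59 to 2.51), 210 against 125 CPM in Trh nuclei (1.68, 1.29 to 2.18) and 645 against 393 CPM in GABA nuclei (1.64, 1.43 to 1.88). The Esr2 ratio compares 75 UMIs in KD with 17 in Ctrl, and 1 KD nucleus held 31 of the 75. The nuclei of no class, most of the data, gave 1.11 (1.04 to 1.18) for it. Ndst4 in KD over Ctrl was 2.48 (1.49 to 4.12) in Esr2 nuclei, 2.05 (1.5 to 2.80) in GABA nuclei, 1.94 (1.12 to 3.39) in Oxt nuclei and 1.77 (1.31 to 2.40) in Trh nuclei. Hs6st3 in Esr2 nuclei was at 104 CPM in Q153R and 183 CPM in KD, against 567 CPM in Ctrl, ratios of 0.183 (0.103 to 0.325) and 0.323 (0.206 to 0.506). Gpc6 in GABA nuclei was at 1395 CPM in Q153R, against 800.0 CPM in Ctrl (1.74, 1.55 to 1.96). GABA nuclei made up 3.62% of used nuclei in Q153R and 6.81% in KD, against 9.03% in Ctrl. With 16 to 18 Esr2 nuclei a pool, a few nuclei can set such a ratio, and differences between mice of a pool are not part of the intervals.

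Glial nuclei that passed the sort gave another map. Among 137 nuclei set aside by markers were 75 astrocyte-like, 35 oligodendrocyte-like and 22 oligodendrocyte precursor-like nuclei, with medians of 1844, 3258 and 2704 UMIs. Gpc5 stood at 7221 CPM in astrocyte-like nuclei and 3483 CPM in precursor-like ones, against 1378 CPM in all neurons. Sdc4, a syndecan of glia and many other cells, had 29 UMIs in 20 of 75 astrocyte-like nuclei (161 CPM, 95% Poisson interval 108 to 232), against 12 UMIs in all neurons. Sulf2 stood at 405 CPM in precursor-like and 178 CPM in oligodendrocyte-like nuclei, against 28.0 CPM in neurons. Hs6st3 held 217 CPM in astrocyte-like nuclei and no UMI in oligodendrocyte-like ones, against 1095 CPM in neurons. Not all modifying enzymes were lower in glia. Hs3st1, called higher in Crh nuclei, had 9 UMIs in oligodendrocyte-like nuclei (72.7 CPM, 33.3 to 138), against 13.7 CPM in neurons. Hs2st1 held 324 CPM (198 to 500) in precursor-like nuclei, against 235 CPM in neurons. The sort selects GFP-positive nuclei, so these few need not stand for PVH glia.

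**Figure D3:**
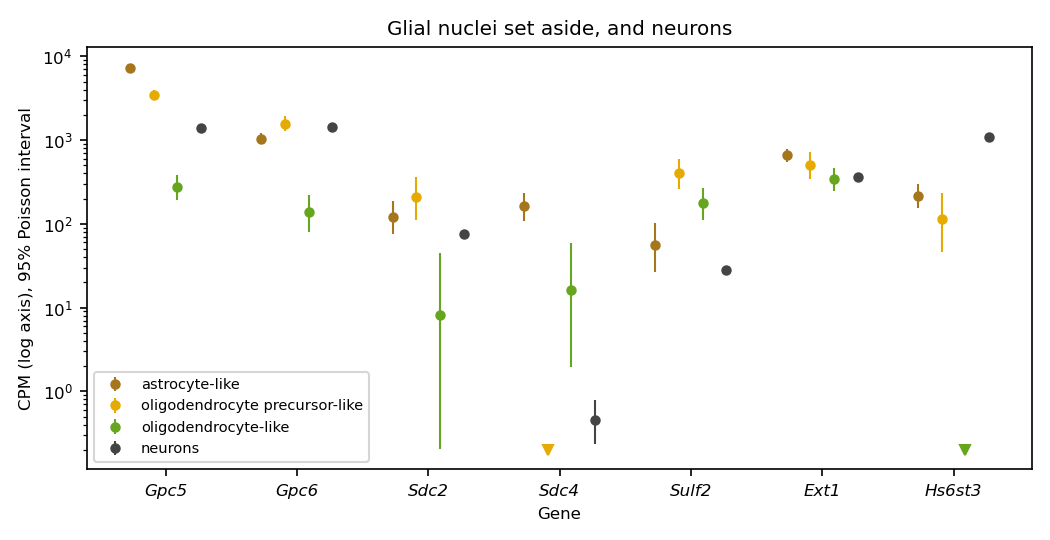
Level (CPM, log axis) of 7 members in glial nuclei set aside by markers and in all neurons used; bars are 95% Poisson intervals, shorter than the point for neurons in most panels, and triangles at the bottom mark 0 UMIs. Gpc5, Sdc4 and Sulf2 are above the neurons in at least 1 glial type, and Hs6st3 is below them in each.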

How the data were processed

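Nuclei of 17 mice were sequenced as 1 droplet library. The authors deposited raw UMI counts of 31053 genes and 3 hashtags for 6173 barcodes; the matrix header names cellranger 7.0.0, per the file headers, and Cell Ranger 6.0.0 with mm10 is named per the submitters' processing notes. Whether intronic reads were counted is not given in the sources used here.

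A minimum of 500 detected genes and a mitochondrial share below 5% left 6157 barcodes. Of these, 4904 had exactly 1 tag (Q153R at least 37, KD 61, Ctrl 105 UMIs), 1124 several and 129 none. A nucleus was in a class at Oxt 10, Avp 10, Crh 2, Trh 2, Sst 4, Esr2 2 or Gad1, Gad2 and Slc32a1 together 3 UMIs; 105 nuclei of several classes and 137 glial or vascular nuclei (at least 4 marker UMIs and 0.1% of UMIs) were left out. Doublets across pools were removed by tags, and those within a pool only in an alternative. The remaining nuclei gave 24 sums (8 groups by 3 pools, 16 to 1202 nuclei, 123572 to 6747441 UMIs). They were compared in edgeR 4.0.16 (R 4.3.3) with TMM, filterByExpr and the pool as a block, as all classes of a pool come from 1 set of mice. Which mice of a pool gave nuclei to a class is not known. The script was tested on simulated data. Promoter windows came from RefSeq and gene positions from GENCODE vM21, which held all 33 members.

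Values in full go to differences past the threshold of at least 1 on the log2 scale, in order of size, at most 15 and 3 per gene, and to genes past the fold between pools; other genes were added after their values were seen. The members, lists and rules were chosen with earlier results of these data known. Alternatives were DESeq2 1.42.0, other scalings, filters and class rules, leaving out a pool, and nuclei without glial markers. A result of 1 list is not reported here.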

Additional observations from a re-analysis of the deposited data

Results flagged for a closer look

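Several members were higher in the glial nuclei set aside than in the neurons, which no comparison of classes used. In astrocyte-like nuclei the ratio to neurons was 5.24 for Gpc5 (95% counting interval 4.96 to 5.54) and 357.2 for Sdc4 (177 to 769), the Sdc4 ratio from 29 UMIs in glia and 12 in neurons. In oligodendrocyte-like nuclei it was 6.346 for Sulf2 (3.95 to 9.68). In oligodendrocyte precursor-like nuclei it was 2.528 for Gpc5 (2.20 to 2.89) and 14.46 for Sulf2 (9.29 to 21.5).

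For 5 members the pools differed in opposite directions in different classes, past 1.5-fold each way; with 1 pool per genotype none of these differences was tested. Of all genes' ratios within single groups, 4.48% passed upward and 6.27% downward in KD, and 4.74% and 6.16% in Q153R. How many of all genes passed both ways was not counted, so the 5 are not read as a property of these members. Gpc5 in Q153R over Ctrl was 2.274 in GABA nuclei (1697 against 746 CPM), 0.6289 in Oxt nuclei (2109 against 3353 CPM) and 0.4764 in Avp nuclei (343 against 719 CPM). Gpc3 in Q153R over Ctrl was 1.601 in Oxt nuclei and 0.3218 in GABA nuclei, the second from 7 UMIs in Q153R and 80 in Ctrl. Hs6st2 in Q153R over Ctrl was 1.52 in Trh nuclei and 0.6618 in GABA nuclei. Glce in KD over Ctrl was 1.573 in Trh nuclei and 0.5621 in Avp nuclei. Sdc2 in KD over Ctrl was 1.631 in Trh nuclei and 0.6206 in GABA nuclei. Gpc3 and Hs6st2 are X-linked, and the pools differ in their share of Xist-positive nuclei, whose part in these ratios was not tested.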

How the results depend on the processing

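The count of member-class differences past the threshold, 50 as reported (29 higher, 21 lower), was 42 to 49 when a pool was left out (42 without Ctrl, 43 without KD, 49 without Q153R), 48 with no replicate block and 45 to 60 in the other alternatives but one. Against all other nuclei of a pool it was 76, with 22 higher and 54 lower; by construction that contrast is weighted to the large group of no class. Of the 50 calls 25 held in every alternative in which they were run (13 in all), 17 were lost without 1 pool or another, 22 in at least 1 of the other alternatives (11 of them against all other nuclei of a pool), and 1 took the opposite sign once (Hs6st2 in Trh nuclei). Of 15 differences given in full none changed sign; 4 values missed the threshold, those of Hs3st2 in Trh nuclei without the Ctrl pool (adjusted p = 0.066) and without glial marker UMIs (0.0748), of Hs3st1 in Crh nuclei without the Ctrl pool (0.0618) and of Gpc5 in Esr2 nuclei with nuclei counted for every rule they meet (0.488), each in edgeR.

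The members past 1.5-fold in KD, 0 as reported, were 3 in Xist-positive nuclei (Hs3st1, Hs3st2 and Hs3st3b1) and 1 with nuclei near many multiple-tag barcodes left out (Hs3st1). Those in Q153R, 1 as reported, were 2 in Xist-positive nuclei (Gpc4 and Hs3st3b1) and 0 with nuclei of several classes kept, with those near multiple-tag barcodes left out, with tag thresholds raised 1.5 times, or without glial marker UMIs; the cause was not tested. In Xist-positive nuclei 236 of all 12457 genes were higher and 262 lower in KD, and 221 of 11787 higher and 331 lower in Q153R. With nuclei near multiple-tag barcodes left out, 180 of 12748 genes were higher and 287 lower in KD. The alternative without glial marker UMIs was chosen after seeing the data. No paired analysis of the pools was possible because each genotype has 1 pool. Depth limits the Esr2 class (51 nuclei) and the 11 members under the filter on low counts.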

Other observations

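Nuclei that met more than 1 class rule were left out of the classes and are few, so their values carry only counting error. The 15 nuclei with both Crh and GABA counts resembled Crh nuclei for Hs3st2 (316 CPM, 95% Poisson interval 215 to 449) and Gpc5 (4446 CPM, 4039 to 4884), while Hs3st4 was at 194 CPM (117 to 303), between the GABA value of 496 CPM and the Crh value of 44.1 CPM. The 30 nuclei with both Sst and GABA counts held Hs6st3 at 1379 CPM (1222 to 1552), between 3216 CPM in Sst and 863 CPM in GABA nuclei, and Hs6st2 at 24.9 CPM (8.08 to 58.1), close to 20.5 CPM in Sst nuclei. Whether such nuclei are cells of both kinds or doublets within a pool was not tested.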
